A study of Mus musculus with 12 samples.

Results

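Lungs of mice given lipopolysaccharide together with bovine lactoferrin (LPS+bLF) were compared with lungs of untreated control mice. The comparison held 6 of the 12 libraries of the study, 3 per group, taken by the groups in the labels and not by any measured value. All mice were male BALB/c, 6 to 8 weeks of age. Of 24 mice, 6 per group, 3 per group were sequenced, with 1 library of polyadenylated lung RNA per mouse. Lungs were taken 14 days into the modelling. Control mice are labelled NC, and no vehicle is named for them. LPS+bLF mice received both agents, and the amounts stand in the labels beside the single agents: LPS as 50 µL at 1 µg/µL, and bLF at 200 mg/kg per day. The route and day of LPS and the days on which bLF was given were not stated in the sources used here. Their treatment label reads LBS+BLF, and their titles read LPSBLF. The remaining groups, LPS alone and bLF alone, entered the fit through the shared estimate of spread, and their values are set beside the comparison. Both groups were compared gene by gene over the 13735 genes that reached 0.5 FPKM (fragments per kilobase of gene, scaled to the size of the library) in at least 3 of the 12 libraries, out of 17920 in the files.

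LPS is a glycolipid that Gram-negative bacteria carry on their surface. It is sensed by macrophages and other cells through Toll-like receptor 4 with CD14 and MD-2, which drives NF-kB and interferon pathways and draws neutrophils and then monocytes into the lung. Lactoferrin is an iron-binding glycoprotein of milk and of neutrophil granules, and it binds LPS. Macrophages, dendritic cells and B cells present antigen on MHC class II molecules, whose genes are switched on together by the coactivator Ciita.

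The 6 libraries held 16831991 to 17820645 counts. For a gene with no count, 3 counts of the library total set an upper limit of 0.168 to 0.178 CPM, from counting error alone. Sftpc, the surfactant protein of alveolar type 2 cells, was at 67658, 91687 and 125929 FPKM in control replicates 1, 2 and 3 and at 130475, 57738 and 101226 FPKM in LPS+bLF replicates 1, 2 and 3, the order used for every gene that follows. The groups overlapped for this gene, and all 6 libraries held lung RNA by this marker.

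Several libraries stood apart for genes that are not of the alveolar lung. Genes of white fat, brown fat and heart muscle were high in control replicate 1 and in LPS+bLF replicate 2, by 3.28 and 4.29 for white fat as a mean of log2 CPM relative to the control mean. LPS+bLF replicate 3 was high for skeletal muscle genes (5.94) and for squamous epithelium genes (5.33). Tnnc2, a troponin of fast skeletal muscle, was at 0.00, 0.63 and 2971 FPKM in the LPS+bLF libraries and at 0.79, 0.64 and 1.52 FPKM in the controls. Lgals7, a galectin of squamous epithelium, was at 0.48, 2.25 and 341 FPKM in LPS+bLF and at 1, 0.00 and 0.00 FPKM in control. B and T cell markers were also highest in LPS+bLF replicate 2 (1.69 and 1.22). In control replicate 2, 23.8% of all counts came from Scgb1a1, a secreted protein of club cells, against 2.59 to 5.99% in the other 5 libraries. LPS+bLF replicate 1 was high for none of these lists, and results are therefore also given with it alone against the controls, an omission chosen after the values were seen.

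**Figure D1:**
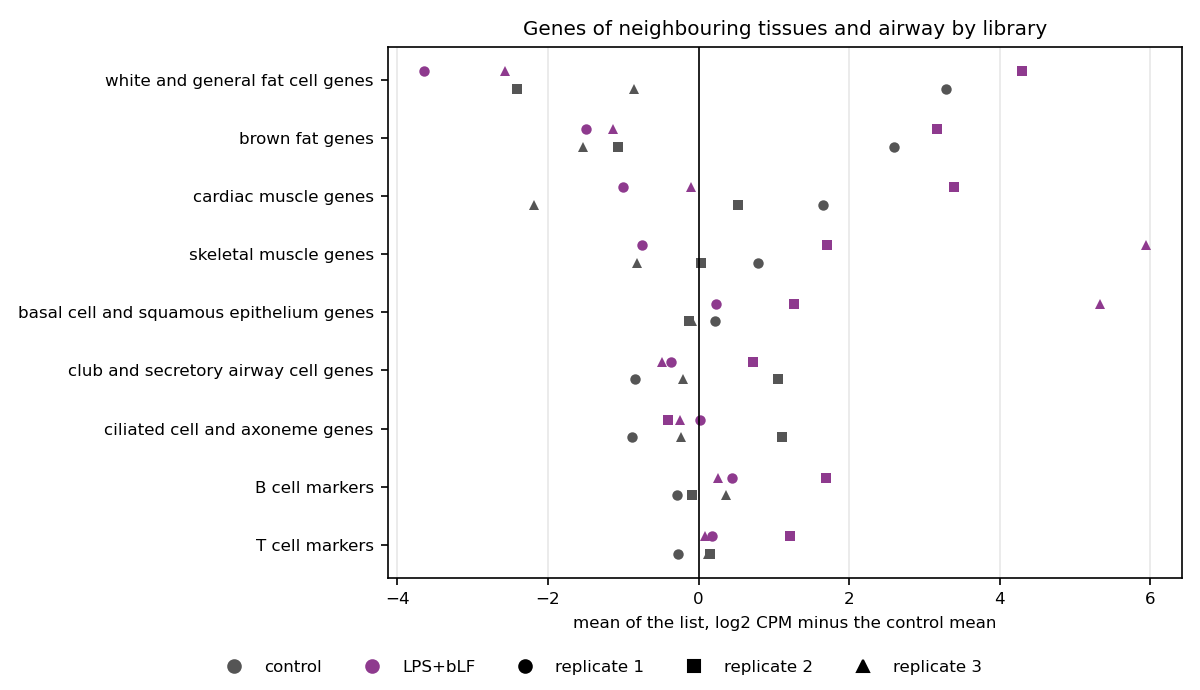
Mean of 9 gene lists in each of the 3 control (grey) and 3 LPS+bLF (purple) libraries, as log2 CPM minus the control mean, with replicates 1, 2 and 3 as circle, square and triangle. LPS+bLF replicate 2 lies far to the right for fat and heart muscle genes, LPS+bLF replicate 3 for skeletal muscle (5.94) and squamous genes (5.33), and control replicate 1 for fat genes.

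No gene was called between LPS+bLF and control by edgeR's quasi-likelihood test at a Benjamini-Hochberg adjusted p under 0.05, which is 0% of the genes tested, and no adjusted p was below 0.832. At an unadjusted p under 0.05 there were 363 genes with higher values in LPS+bLF (2.64%) and 295 with lower values (2.15%), 658 in all. Limma on log2(FPKM + 1) called 0 genes, with 496 at an unadjusted p under 0.05. DESeq2 called 12 (0.0874%), 10 higher and 2 lower, with 847 at an unadjusted p under 0.05. On simulated counts with 200 of 13735 genes changed, DESeq2 made 41 false calls, edgeR 4 and limma 3 at the same threshold. True changes of 1 on the log2 scale were recovered at 43% by DESeq2, 17% by edgeR and 13% by limma. For true changes of 2 the shares were 93%, 72% and 70%. In the simulation edgeR thus missed most changes of 1. Each gene was simulated with the same spread in every library, as edgeR estimated it from these data. No simulated library stood apart as some real ones did, so the counts of false calls may not hold for the real data. The DESeq2 count rested on single libraries. It was 108 without LPS replicate 1, 46 without LPS+bLF replicate 1, 41 without control replicate 1, 13 without LPS+bLF replicate 2, 4 without control replicate 3, 3 without control replicate 2 and 0 without LPS+bLF replicate 3. With 3 mice against 3, an exact permutation test of a single gene cannot go below p = 0.1. The p-values of edgeR, limma and DESeq2 rest on a spread estimated over the mice of all 4 groups, LPS alone and bLF alone included. Among these, LPS replicate 1 stood apart, with 3067 genes at no count against 1499 to 1963 in the other libraries. Its list means, as log2 CPM relative to the control mean, were −2.59 for B cell markers and 2.62 for neutrophil markers. Without LPS replicate 1, edgeR's quasi-likelihood test gave 1702 genes at an unadjusted p under 0.05 and a smallest adjusted p of 0.165.

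Of the genes tested, 50.6% had a log2 fold change above 0, and the median was 0.005. In FPKM, all 3 LPS+bLF libraries lay above all 3 controls for 537 genes (3.91%) and below them for 1071 (7.8%), so that 33.4% of the non-overlapping genes were higher. In CPM scaled by TMM factors the numbers were 923 (6.72%) and 787 (5.73%), and 54% were higher. The balance of the directions thus depended on the scaling, and each list below is read against these shares.

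The 12 genes with the smallest p on the higher side are given first. Siglece (gene ID 83382, GRCm38 chromosome 7, 43648882 to 43672044), an inhibitory sialic acid receptor of myeloid cells, was at 8.95, 4.25 and 6.99 FPKM in control and at 11.9, 13.3 and 15.3 FPKM in LPS+bLF. All 3 LPS+bLF libraries lay above all controls, the log2 fold change was 1.03 ± 0.18 (SE), and DESeq2 gave an adjusted p of 0.00321. It was called by DESeq2 in 6 of the 7 fits that left out 1 library. Il10ra (gene ID 16154, chromosome 9, 45253837 to 45269149), the ligand-binding chain of the interleukin 10 receptor, was at 9.41, 4.47 and 8.01 FPKM in control and at 12.7, 14.1 and 15.7 FPKM in LPS+bLF. Its log2 fold change was 1.03 ± 0.20, DESeq2 gave an adjusted p of 0.0179, and 4 of the 7 omissions kept the call.

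Coro1a, an actin regulator of leukocytes, was at 127, 80.6 and 115 FPKM in control and 163, 286 and 199.7 FPKM in LPS+bLF, 1.08 ± 0.25 on the log2 scale. The groups did not overlap, and LPS+bLF replicate 2, the library with the most B and T cell RNA, was the highest. Map4k1, a kinase of blood cells, was likewise highest there, at 9.53, 17.2 and 11.8 FPKM against 6.69, 3.49 and 6.76 FPKM. Without that library the log2 fold change of Coro1a was 0.80 and that of Map4k1 was 0.97. Fmnl1, a formin of leukocytes, was at 23.1, 11.1 and 22 and 30.9, 40.8 and 35.3 FPKM in the order control and LPS+bLF. Snx20, a sorting nexin, and Sema4d, the semaphorin CD100 of lymphocytes, had log2 fold changes of 0.99 ± 0.22 and 0.92 ± 0.20. Batf, an AP-1 family factor of lymphocytes and dendritic cells, was at 18.5, 13.8 and 15.6 FPKM in control and 25.8, 25.8 and 38.4 FPKM in LPS+bLF. These 6 genes were among those DESeq2 called, each with an adjusted p of 0.0491. H2-T10, a nonclassical MHC class I gene, and Ino80b, a subunit of the INO80 chromatin remodelling complex named outside the rule for its DESeq2 call, had the same adjusted p at smaller log2 fold changes of 0.66 ± 0.15 and 0.41 ± 0.12. Of the 7 omissions, 3 kept the call of Coro1a, Fmnl1 and Map4k1, 2 that of Batf, Sema4d, Snx20 and Ino80b, and 1 that of H2-T10. Ino80b was at 70.8, 61.6 and 76 FPKM in control and 88.8, 82 and 95.5 FPKM in LPS+bLF. Pik3r5, an adaptor of the phosphoinositide 3-kinase of leukocytes, Bcl2a1d, a survival gene of the Bcl2 family, and Gstp3, a glutathione transferase, did not overlap either, at log2 fold changes of 0.85 ± 0.20, 0.95 ± 0.22 and 0.95 ± 0.21. Bcl2a1d and H2-T10 have near-identical copies in the genome, so that their counts may be shared with them.

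**Figure D2:**
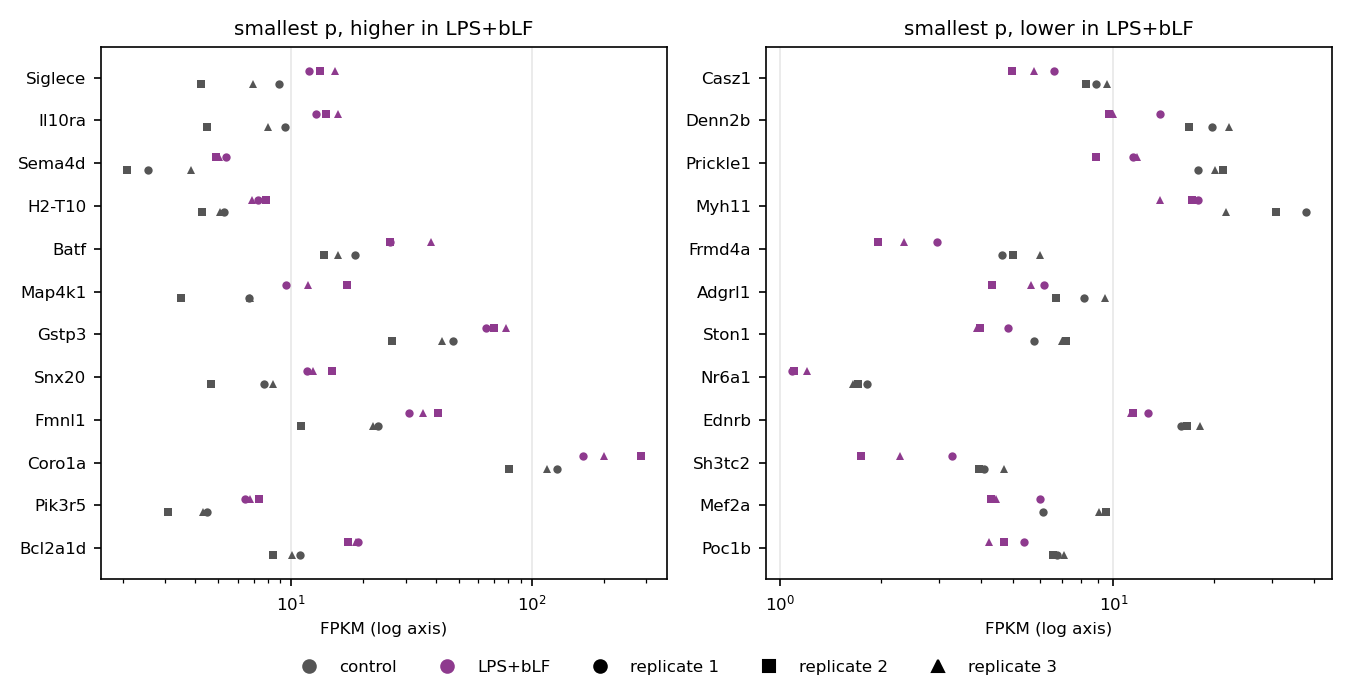
FPKM on a log axis of the 12 genes with the smallest p in each direction, in the 3 control (grey) and 3 LPS+bLF (purple) libraries, with replicates 1, 2 and 3 as circle, square and triangle. The groups do not overlap for any of the 24 genes in FPKM, since a small p selects for this, and Siglece runs from 4.25 to 8.95 in control and from 11.9 to 15.3 in LPS+bLF.

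MHC class II presentation genes were higher as a list. All 15 tested members had higher values in LPS+bLF, with a median log2 fold change of 0.77, and none was called. In FPKM 10 of the 15 lay above all controls, against 3.91% of all genes, and in CPM 11 did. The list mean was −0.11, −0.12 and 0.23 in control and 0.73, 0.83 and 0.54 in LPS+bLF, so the groups were apart for the list as a whole. The median was 0.65 to 0.93 when 1 library was left out, 0.83 with LPS+bLF replicate 1 alone, and 0.61 to 0.78 over the other scalings and tools. In bulk RNA, more cells of a type and more RNA per cell cannot be told apart.

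Promoters of the class II chains are shown because the tested chain genes had differences of one sign and class II genes are known to share a promoter layout. RefSeq windows of 250 bases before to 50 after the start were searched for GATTGG, the core of the Y box that the factor NF-Y binds, on both strands. Of 9 chain genes 8 matched a window, and each of the 8 held the motif in at least 1 window. By the same count 22.8% of the 10930 tested genes with a window held it, and by window 16.1% of the 32851 in the table. Capitals mark GATTGG, and each excerpt is written 5′ to 3′ on the gene's strand, from chromosome 17 of GRCm38.
H2-Aa (chr17:34287857-34287926, minus strand): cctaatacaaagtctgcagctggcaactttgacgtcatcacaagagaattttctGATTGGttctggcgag
H2-Eb1 (chr17:34305753-34305822, plus strand): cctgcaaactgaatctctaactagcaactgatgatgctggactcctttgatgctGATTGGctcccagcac
H2-Ob (chr17:34238793-34238862, plus strand): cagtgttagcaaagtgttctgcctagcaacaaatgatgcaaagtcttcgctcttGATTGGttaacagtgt
H2-Oa (chr17:34092281-34092350, plus strand): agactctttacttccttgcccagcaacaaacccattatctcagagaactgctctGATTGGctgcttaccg
H2-DMb1 (chr17:34153075-34153144, plus strand): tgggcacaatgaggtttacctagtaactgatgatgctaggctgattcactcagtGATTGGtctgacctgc
H2-DMb2 (chr17:34145104-34145173, plus strand): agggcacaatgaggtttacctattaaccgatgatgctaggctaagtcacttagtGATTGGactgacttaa
The motif began 44 to 62 bases before the start in H2-Aa, H2-Eb1, H2-Ob, H2-Oa and H2-DMb1 and 91 bases before it in H2-DMb2. Not shown are H2-DMa and H2-Eb2. H2-DMa held the motif 199 bases before the start in 1 of its windows and lacked it in the other, and H2-Eb2, which was not among the genes tested, held it 101 bases before. A match of these letters is a description and no measure of binding.

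The classical chains present peptides at the cell surface. H2-Ab1 (gene ID 14961, chromosome 17, 34263227 to 34269418), the beta chain of I-A, was at 656, 495 and 654 FPKM in control and at 1459, 1126 and 1389.9 FPKM in LPS+bLF, a log2 fold change of 1.19 ± 0.43. The lowest LPS+bLF library lay well above the highest control. H2-Aa, the alpha chain, was at 504, 413 and 671 and 1198, 805 and 921 FPKM, and H2-Eb1, the beta chain of I-E, at 89.1, 71.6 and 114 and 196, 136 and 126 FPKM. Both separated the groups, and in both LPS+bLF replicate 1 was the highest library. Cd74, the invariant chain that guides class II molecules, was at 1349, 706 and 1511 FPKM in control and at 2512, 1738 and 2015 FPKM in LPS+bLF, 0.87 ± 0.41 on the log2 scale. H2-Aa, H2-Eb1, Cd74 and the other members named here beyond H2-Ab1, H2-Oa and Ctss were chosen after their values were seen.

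Peptide loading and processing genes differed by member. H2-DMa, H2-DMb1 and H2-DMb2, which encode the exchange factor H2-DM, had log2 fold changes of 0.45 ± 0.51, 0.65 ± 0.64 and 0.77 ± 0.37. In H2-DMa the groups overlapped in FPKM. H2-Oa, which with H2-Ob forms the inhibitor of H2-DM in B cells, was at 4.71, 4.6 and 7.75 FPKM in control and at 11.9, 18.6 and 11.3 FPKM in LPS+bLF, with the highest value in LPS+bLF replicate 2. The log2 fold change of H2-Oa was 1.36 ± 0.43. H2-Ob, at 0.76, 1.41 and 1.84 and 1.81, 3.57 and 1.25 FPKM, overlapped between the groups. Ctss, the protease that trims the invariant chain, was at 97.2, 48.9 and 98.6 FPKM in control and 153, 121 and 121 FPKM in LPS+bLF, 0.73 ± 0.23. Ciita was low throughout, at 1.38, 1.57 and 1.43 FPKM against 1.82, 2.01 and 1.88 FPKM, and did not overlap. The costimulatory ligand Cd80 was at 0.66, 0.41 and 0.74 and 1.03, 1.58 and 1.1 FPKM without overlap, while Cd86 overlapped (0.61 ± 0.43). The lysosomal proteases Ctsl and Lgmn had log2 fold changes of 0.04 ± 0.23 and 0.07 ± 0.28, and these changed sign when control replicate 2 was left out. H2-DMb1 and H2-DMb2 are near-identical copies whose counts may be shared. The mice were BALB/c, while the build named, mm10, comes from C57BL/6, a strain with other alleles of these genes, and what this did to the counts was not tested.

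**Figure D3:**
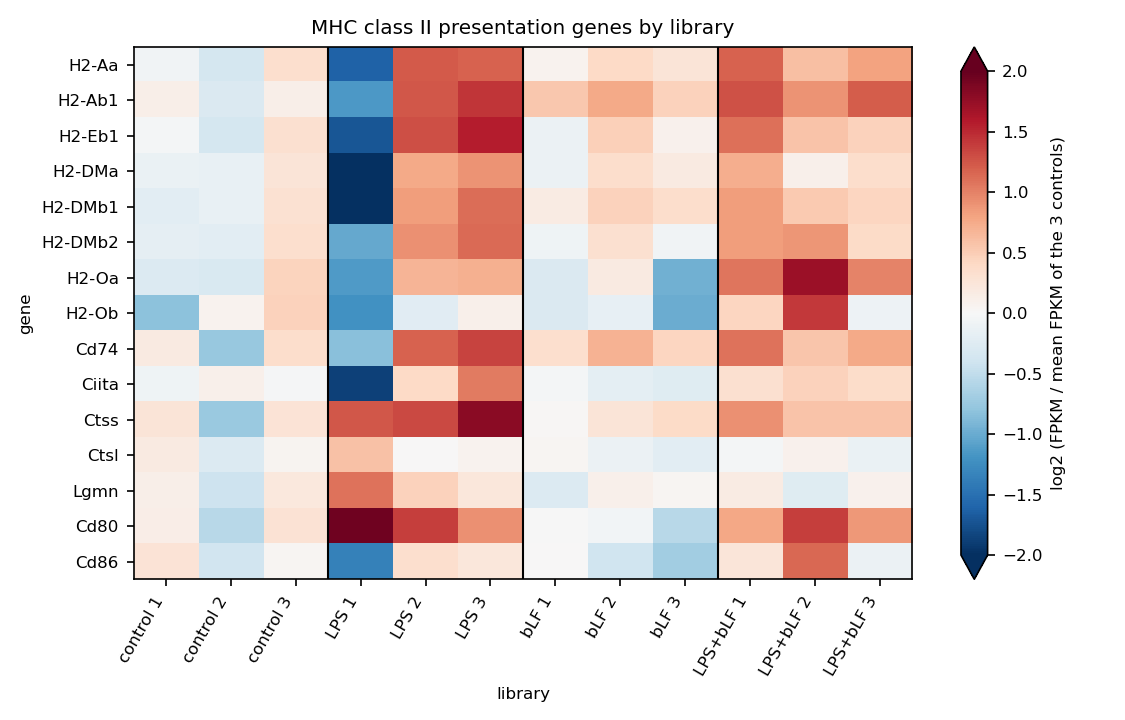
Log2 ratio of FPKM to the mean of the 3 controls for the 15 MHC class II presentation genes (rows) in the 12 libraries (columns, by group). The 3 LPS+bLF libraries are red in most rows, LPS replicates 2 and 3 as well, and LPS replicate 1 is blue in most rows. As a list the bLF libraries lie near the controls (means of 0.0, 0.25 and −0.02, log2 CPM minus the control mean). For H2-Ab1, however, every bLF library is above every control.

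Against the single treatments, the class II list had a median log2 fold change of 0.60 in LPS versus control and 0.09 in bLF versus control, comparisons that share the control libraries. The LPS libraries were split, with list means of −0.51, 0.71 and 0.94. H2-Ab1 was at 271, 1421 and 1614 FPKM in LPS and at 876, 1022 and 833 FPKM in bLF. For this gene every bLF library also lay above every control. The log2 difference between LPS+bLF and LPS was 0.33 ± 0.42 for H2-Ab1 and 0.02 ± 0.41 for Cd74, both within their spread.

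Dendritic cell markers were higher for 15 of 19, with a median of 0.56, and 4 of 19 lay above all controls in FPKM against 3.91% of all genes. Batf3 (gene ID 381319, chromosome 1, 191098414 to 191108943), a factor needed by type 1 conventional dendritic cells, was at 3.41, 3.58 and 2.79 FPKM in control and at 6.37, 11.2 and 8.84 FPKM in LPS+bLF, a log2 fold change of 1.48 ± 0.36. Xcr1 and Clec9a, other markers of that cell type, had log2 fold changes of −0.33 ± 0.69 and −0.41 ± 0.33. Flt3, the growth factor receptor of dendritic cell precursors, was at 1.14, 0.78 and 1.18 and 2.29, 1.88 and 2.06 FPKM without overlap. Ccl22, a chemokine made by dendritic cells, was at 1.97, 2.18 and 2.42 FPKM in control and 4.23, 8.54 and 6.09 FPKM in LPS+bLF. Ccl17, of the same pair of chemokines, reached 33.6, 9.02 and 19 FPKM in LPS+bLF against 6.53, 10.1 and 10.7 FPKM, and overlapped through LPS+bLF replicate 2. Ebi3, a subunit of interleukins 27 and 35, was at 5.07, 3.81 and 5.52 and 9.19, 9.9 and 9.31 FPKM, again without overlap. Flt3, Xcr1, Clec9a and Ccl17 were named after their values were seen. With LPS+bLF replicate 1 alone the list median was 0.30.

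Monocyte and interstitial macrophage markers were higher for 25 of 36, with a median of 0.25, which was 0.14 without LPS+bLF replicate 2 and 0.40 without LPS+bLF replicate 1, LPS+bLF replicate 3 or control replicate 1. In FPKM 12 of the 36 lay above all controls and 1 below, against 3.91% and 7.8% of all genes. The list did not move as a whole, since 11 members were lower. Among these Lyve1, Treml4 and Ly6c2 had log2 fold changes of −1.15 ± 0.61, −0.58 ± 0.82 and −0.39 ± 0.39. Csf1r was at 0.06 ± 0.20. Ms4a7 (gene ID 109225, chromosome 19, 11321039 to 11336146), a membrane protein of macrophages, was at 1.14, 1.33 and 1.77 FPKM in control and at 2.78, 2.55 and 3.61 FPKM in LPS+bLF, 1.12 ± 0.30 on the log2 scale. The 3 chains of complement C1q had like differences. C1qa, C1qb and C1qc had log2 fold changes of 0.76 ± 0.23, 0.85 ± 0.23 and 0.76 ± 0.22, all without overlap, and the highest library was LPS+bLF replicate 2 in each. Adgre1, which encodes the macrophage antigen F4/80, was at 0.86, 1.21 and 1.78 FPKM in control and 2.64, 2.57 and 1.86 FPKM in LPS+bLF, and Apoe, the lipid carrier, at 1166, 632 and 1079.8 and 1398, 2225 and 1195 FPKM. Cybb, the catalytic subunit of the phagocyte oxidase, was at 4.34, 3.58 and 4.06 FPKM in control and 7.06, 7.02 and 5.87 FPKM in LPS+bLF. Ncf1, its cytosolic subunit, had a log2 fold change of 0.76 ± 0.22. The list of phagocyte oxidase and lysosome genes was higher for 23 of 31 (median 0.32, 9 of 31 above all controls in FPKM against 3.91% of all genes). Complement genes were higher for 20 of 25 with a median of 0.41, which was 0.14 without LPS+bLF replicate 2. Gpnmb, a gene of lipid-laden macrophages, was at 1.39, 0.73 and 1.37 FPKM in control and 1.42, 0.93 and 0.95 FPKM in LPS+bLF, and the groups overlapped. Alveolar macrophage markers were higher for 17 of 26 with a median of 0.21, with 2 of 26 above all controls in FPKM against 3.91% of all genes. That median was 0.06 without LPS+bLF replicate 2 and 0.10 without control replicate 2. C1qa, Adgre1, Apoe, Lyve1, Treml4, Ly6c2 and Csf1r were named after their values were seen.

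Several of these macrophage genes had higher values still with LPS alone. Ms4a7 was at 5.31, 6.6 and 7.61 FPKM in LPS, above all 3 LPS+bLF libraries, and the log2 difference LPS+bLF minus LPS was −1.13 ± 0.29 (SE). Ctss was at 194, 204 and 285 FPKM in LPS (−0.84 ± 0.23), and Gpnmb at 10.3, 2.51 and 5.52 FPKM (−2.58 ± 0.56). The list median was −0.56 in LPS+bLF versus LPS. Siglece and Il10ra, in contrast, were at 13, 14.8 and 15.2 FPKM and 13.5, 17 and 14.2 FPKM in LPS, and their differences from LPS+bLF were −0.13 ± 0.18 and −0.07 ± 0.20. No named gene had an adjusted p below 0.684 in LPS+bLF versus LPS by edgeR's quasi-likelihood test. In bLF alone, Siglece was at 8.81, 7.67 and 7.6 FPKM and Ms4a7 at 1.64, 0.94 and 1.34 FPKM, close to the controls.

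**Figure D4:**
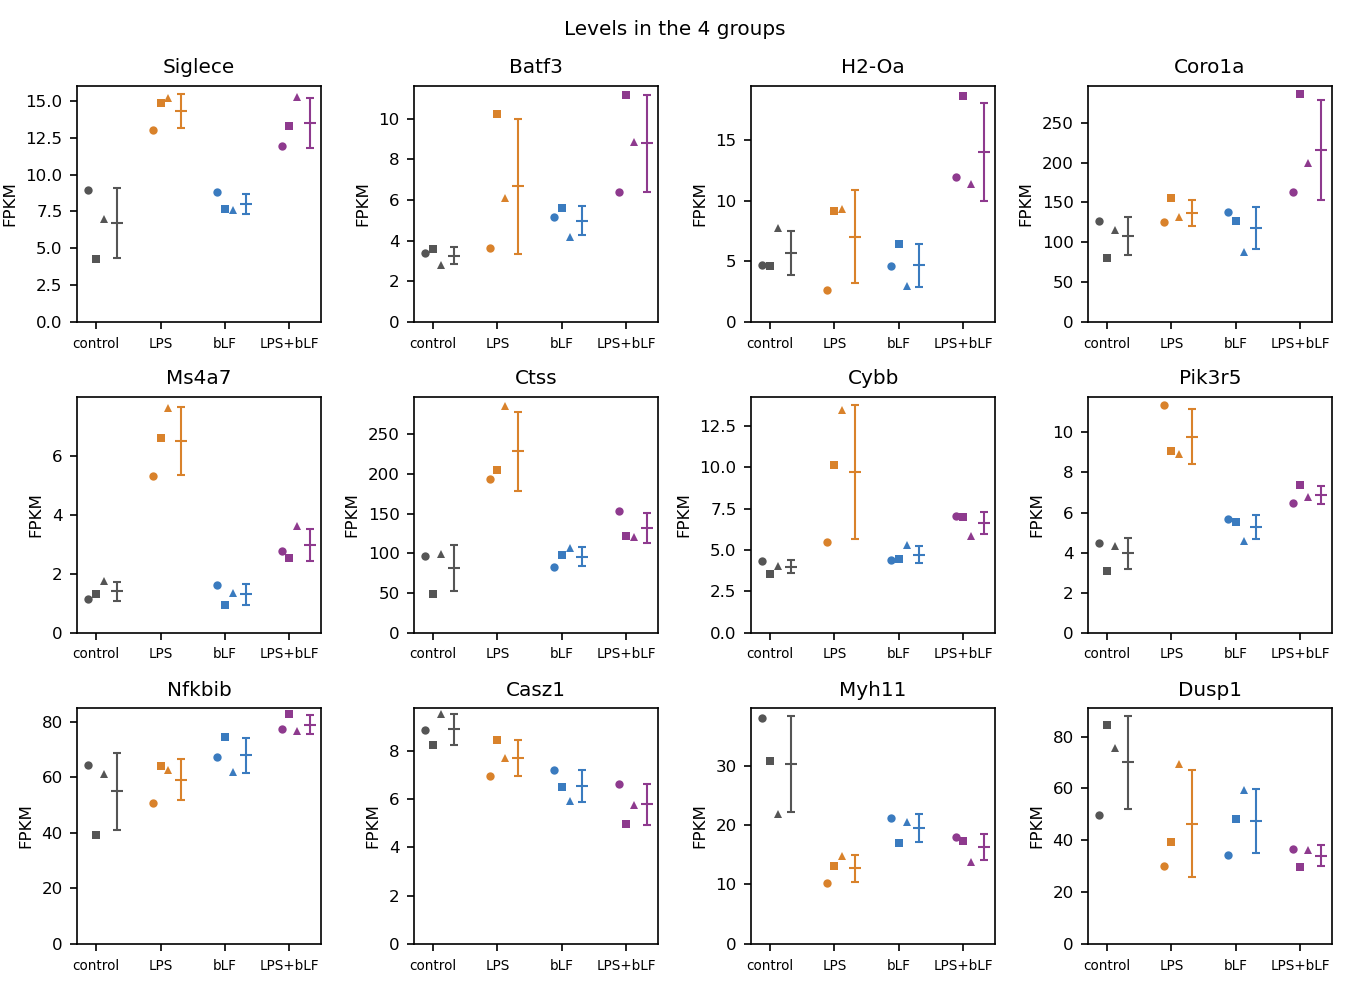
FPKM of 12 genes in the 4 groups, with the 3 libraries as points (replicates 1, 2 and 3 as circle, square and triangle) and the mean ± SD beside them. Siglece has like levels in LPS and LPS+bLF, and Ms4a7 is highest in LPS (5.31 to 7.61) and intermediate in LPS+bLF (2.55 to 3.61). Casz1 has its lowest mean in LPS+bLF (4.96 to 6.65), where the libraries overlap with those of bLF.

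Lymphocyte markers were higher as lists, and the medians were much smaller without LPS+bLF replicate 2. All 22 B cell markers had higher values, with a median of 0.88, which was 0.23 without that library. Among them Vpreb3 was in effect level, at 0.0 ± 0.56. In FPKM 3 of the 22 lay above all controls, against 3.91% of all genes. Cr2, the complement receptor of follicular B cells, was at 0.78, 3.51 and 0.50 FPKM in LPS+bLF and 0.45, 0.20 and 0.55 FPKM in control, so that 1 library was far above the rest. Cd79b, of the B cell receptor, was at 25.1, 19.1 and 23.9 FPKM in control and 34.6, 63.1 and 33.2 FPKM in LPS+bLF without overlap. Jchain, which links IgA and IgM, was at 12.5, 12.3 and 16 FPKM in control and 34.6, 103 and 29.1 FPKM in LPS+bLF, and its log2 fold change was 1.25 without LPS+bLF replicate 2. Cd72, an inhibitory receptor of B cells, had 8.18, 7.66 and 11.6 and 18.1, 40.4 and 21.7 FPKM. T cell markers were higher for 18 of 21, with a median of 0.65, which was likewise 0.23 without LPS+bLF replicate 2. Cd3d, of the T cell receptor complex, was at 8.73, 6.56 and 7.06 FPKM in control and 9.64, 19.9 and 13.8 FPKM in LPS+bLF, and Thy1 at 28, 16.7 and 21.1 and 30.4, 61.4 and 36.5 FPKM. In both, the lowest LPS+bLF library was only slightly above the highest control.

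NK and cytotoxic markers were higher for 15 of 18 with a median of 0.39, and none had an unadjusted p under 0.05. The median was 0.21 without LPS+bLF replicate 2. Nkg7, of cytotoxic granules, was at 18.3, 13.1 and 17.9 FPKM in control and 28.2, 31.2 and 25.9 FPKM in LPS+bLF without overlap. Gzma, a granzyme, was at 39.3, 33.1 and 40.5 and 49.6, 37.9 and 41 FPKM and overlapped. In LPS alone both were split between libraries, Nkg7 at 3.74, 62.6 and 59 FPKM and Gzma at 4.8, 158 and 129 FPKM. LPS+bLF replicate 2 was the highest library for the B cell, T cell and white fat lists alike. Control replicate 1, also high for white fat, had B and T cell means of −0.28 and −0.27, the lowest of the controls.

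The LPS sensing and inflammatory lists had medians of 0.08 to 0.20, against 0.005 for all genes. Of the 34 tested genes for sensing LPS and for NF-kB, 20 were higher, with a median of 0.08. In FPKM 5 of the 34 lay above all controls and 1 below, against 3.91% and 7.8% of all genes. Nfkbib, an inhibitor of NF-kB, was at 64.4, 39.1 and 61.2 FPKM in control and 77.2, 82.8 and 76.7 FPKM in LPS+bLF, 0.59 ± 0.15 and without overlap. Nfkb2, the precursor p100, overlapped in FPKM (0.77 ± 0.26). The median was 0.18 for inflammatory mediators (13 of 20 higher). For chemokines it was 0.20 (17 of 28 higher), which was 0.06 without LPS+bLF replicate 1 and 0.09 without control replicate 3. In FPKM 1 mediator lay above all controls and 2 below, while 4 chemokines lay above and 0 below. Tnf was at 0.52, 0.66 and 0.88 FPKM in control and 1.12, 1.33 and 0.78 FPKM in LPS+bLF. Il1b was at 5.05, 17.1 and 14.2 and 12.5, 14 and 14.7 FPKM, with LPS+bLF inside the range of the controls. Cxcl1, Ccl2, Il6 and Cxcl2, which recruit or activate neutrophils and monocytes, were at most 2.47 FPKM in these 6 libraries. Il6 and Cxcl2 did not reach the filter. The groups overlapped for all 6 genes.

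Acute-phase genes had a median of 0.02 (−0.21 without LPS+bLF replicate 2, 0.21 without control replicate 2). Saa3, an acute-phase protein made in inflamed lung, was at 30.9, 103 and 21.4 FPKM in control and 21.2, 236 and 54.4 FPKM in LPS+bLF, with only LPS+bLF replicate 2 above the controls. Lcn2, which binds bacterial siderophores, was at 107, 265 and 186 and 250.0, 109 and 129 FPKM and overlapped. Slpi, a protease inhibitor of airway secretions, was at 67.1, 40.4 and 62 FPKM in control and 109, 79.8 and 299 FPKM in LPS+bLF without overlap, and LPS+bLF replicate 3, the library high for squamous epithelium, was the highest. Neutrophil markers had a median of −0.09, with 8 of 18 higher, and the median was −0.32 without control replicate 1 and 0.34 without control replicate 2. Csf3r, the receptor for granulocyte colony-stimulating factor, was at 5.07, 14.9 and 16.3 FPKM in control and 9.24, 8.6 and 5.7 FPKM in LPS+bLF. Camp, a granule protein, was at 12.9, 7.98 and 3.36 and 14.8, 16.4 and 28.3 FPKM, just without overlap.

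Among interferon-stimulated genes 16 of 42 were higher, and the median was −0.12 (−0.26 without control replicate 1, −0.02 without control replicate 3). In FPKM 3 lay above all controls and 3 below, against 3.91% and 7.8% of all genes. Oas1a, an antiviral synthetase, was 1 of those above, at 4.88, 6.17 and 10.5 FPKM in control and 11.9, 11.3 and 14.7 FPKM in LPS+bLF. MHC class I presentation genes were higher for 16 of 22, with a median of 0.32. In FPKM 3 of the 22 lay above all controls and in CPM 9, against 3.91% and 6.72% of all genes. Psmb8, a subunit of the immunoproteasome, was at 95.4, 80.3 and 81.1 FPKM in control and 110.4, 138 and 118 FPKM in LPS+bLF, 0.57 ± 0.16. Tap1, the peptide transporter, had 0.73 ± 0.22, and H2-T23, the ligand of NKG2A, 0.26 ± 0.17, both overlapping in FPKM.

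Erythroid genes were higher for 10 of 12, with a median of 0.82 (0.65 to 1.07 when 1 library was left out). Hba-a2, an alpha globin, was at 47507, 16357 and 48898 FPKM in control and 68106, 107659 and 65571 FPKM in LPS+bLF. The lowest LPS+bLF library was above the highest control, and control replicate 2 was far below the rest. Blood left in the tissue was not measured, and alpha globin counts may be shared between near-identical copies.

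Cell cycle genes were higher for 29 of 32, at a median of 0.38 (0.33 to 0.51 when 1 library was left out, 0.30 with LPS+bLF replicate 1 alone). In FPKM 7 of the 32 lay above all controls and in CPM 11, against 3.91% and 6.72% of all genes. Top2a, a topoisomerase of dividing cells, was at 1.41, 0.64 and 1.02 FPKM in control and 2.02, 1.75 and 1.78 FPKM in LPS+bLF. Mki67, the Ki-67 antigen, was at 1.85, 0.89 and 0.80 and 2.13, 1.87 and 2.15 FPKM, where control replicate 1 was close to LPS+bLF. Ube2c, which drives exit from mitosis, had 1.05 ± 0.34 and Tk1, thymidine kinase, 0.84 ± 0.34. The same list had a median of 0.85 in LPS versus control and 0.31 in bLF versus control. By library the list mean was 1.54, 0.38 and 0.42 in LPS and 0.45, 0.47 and 0.35 in LPS+bLF, so that only LPS replicate 1 lay above the LPS+bLF libraries. Top2a and Mki67 were named after their values were seen.

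Cytosolic ribosomal protein genes were higher for 36 of 40, by a small median of 0.30. In FPKM 19 of the 40 lay above all controls and in CPM 14, against 3.91% and 6.72% of all genes. Rpl27 was at 805, 775 and 817 FPKM in control and 946, 1024 and 1139 FPKM in LPS+bLF, and Rps9 at 2377, 1381 and 1973 and 2483, 2818 and 3275 FPKM. These transcripts are short, with 36 of the 40 in the shortest of 5 equal classes of genes by length. Length was worked out from the counts and FPKM rather than from annotation, which left out some genes of low FPKM. Over the genes with a length, the median log2 fold change was 0.2 in the shortest class, 0.08 without LPS+bLF replicate 2. It was −0.1 in the longest class, and the part of length in the ribosomal list was not tested. With LPS+bLF replicate 1 alone the list median was 0.11.

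From the 12 genes with the smallest p on the lower side, 4 are described here. Casz1 (gene ID 69743, chromosome 4, 148804366 to 148954893), a zinc finger transcription factor needed for heart and vessel development, was at 8.88, 8.25 and 9.55 FPKM in control and 6.65, 4.96 and 5.76 FPKM in LPS+bLF, a log2 fold change of −0.63 ± 0.14. DESeq2 called it at an adjusted p of 0.0275 and kept the call in 3 of the 7 omissions. Denn2b, a guanine nucleotide exchange factor for Rab proteins, was at 19.8, 16.9 and 22.2 and 13.8, 9.72 and 10 FPKM, with an adjusted p of 0.0497 from DESeq2 and a call in 2 of the 7 omissions. Prickle1, of the planar polarity pathway, was at 17.9, 21.4 and 20.2 FPKM in control and 11.5, 8.87 and 11.7 FPKM in LPS+bLF. Frmd4a, a scaffold of epithelial polarity, had −1.06 ± 0.28. In none of these did the groups overlap. For Casz1 and Denn2b the log2 differences LPS+bLF minus LPS were −0.46 ± 0.14 and −0.61 ± 0.19, and bLF alone had Casz1 at 7.22, 6.51 and 5.93 FPKM.

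Smooth muscle genes were uneven. Myh11 (gene ID 17880, chromosome 16, 14194527 to 14292188), the smooth muscle myosin heavy chain, was at 38, 30.8 and 21.8 FPKM in control and 17.9, 17.3 and 13.8 FPKM in LPS+bLF, a log2 fold change of −0.85 ± 0.21. The groups did not overlap, and LPS alone was at 10.2, 13.1 and 14.8 FPKM. Cnn1, smooth muscle calponin, was at 89.1, 76 and 45.3 and 42.2, 39.5 and 48.1 FPKM and overlapped through control replicate 3. The list of 25 smooth muscle and pericyte markers had 12 higher members. Its median was −0.00, and ran from −0.36 to 0.24 when 1 library was left out. Plcb4, a phospholipase C, was at 5.86, 5.96 and 6.26 FPKM in control and 4.08, 4.08 and 3.21 FPKM in LPS+bLF without overlap.

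Endothelial genes differed by member rather than as a list. Ednrb, the endothelin B receptor of capillaries, was at 16, 16.6 and 18.2 FPKM in control and 12.7, 11.5 and 11.3 FPKM in LPS+bLF, −0.52 ± 0.15. Edn1, endothelin 1 itself, was at 12.2, 11.4 and 11 and 7.23, 4.99 and 7.97 FPKM, also without overlap. Thbd, thrombomodulin, was at 69.7, 86.9 and 101 FPKM in control and 62, 39.8 and 53.6 FPKM in LPS+bLF. Tek, the angiopoietin receptor, overlapped (−0.42 ± 0.20). The 28 capillary and vessel markers had a median of −0.07 (−0.15 without LPS+bLF replicate 3, 0.07 without LPS+bLF replicate 2), with 10 higher and 3 below all controls in FPKM, against 7.8% of all genes.

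Immediate-early genes were higher for 11 of 28 with a median of −0.10. In FPKM 5 of the 28 lay below all controls and in CPM 4, against 7.8% and 5.73% of all genes. The median was 0.05 without control replicate 1 and −0.22 without control replicate 2. Dusp1 (gene ID 19252, chromosome 17, 26505591 to 26508472), a phosphatase that ends MAP kinase signals, was at 49.9, 84.4 and 75.6 FPKM in control and 36.6, 29.5 and 36.2 FPKM in LPS+bLF, −1.01 ± 0.32. Jun, of AP-1, was at 65.8, 53.8 and 70.7 and 53.2, 35.5 and 49.3 FPKM, Ccn1, a matricellular protein, at 84, 47 and 50.8 and 36.5, 16.8 and 43.9 FPKM, and Sik1, a kinase induced by cAMP, at 10, 11 and 15.5 and 8.8, 8.79 and 8.11 FPKM. These 4 genes did not overlap. Fos, the partner of Jun, was at 33.7, 10 and 11.1 FPKM in control and 5.33, 3.11 and 11.4 FPKM in LPS+bLF, and Klf4, a zinc finger factor, had −0.68 ± 0.30. Egr2, another zinc finger factor of the list, went the other way (0.71 ± 0.31). The time from death to freezing and the hour of sampling were not stated in the sources used here. Clock genes also differed by single members. Per3 was at 8.2, 9.14 and 12.9 FPKM in control and 7.47, 5.42 and 4.94 FPKM in LPS+bLF without overlap, Per2 at 1.5, 3.89 and 4.9 and 2.19, 1.53 and 0.96 FPKM with overlap, and the list of 22 had a median of −0.10, which was −0.20 without LPS+bLF replicate 2. Fos, Jun, Klf4, Sik1 and Egr2 were named after their values were seen.

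Epithelial lists were lower or near 0, and those of the airway changed with control replicate 2. Ciliated cell genes were higher for 4 of 25 with a median of −0.36, which was 0.36 without control replicate 2. Foxj1, the master factor of motile cilia, was at 8.87, 51.5 and 19.9 FPKM in control and 17.3, 10.4 and 11.7 FPKM in LPS+bLF. Scgb1a1 was at 114067, 1056141 and 268221 FPKM in control and 239473, 157596 and 143712 FPKM in LPS+bLF, and its log2 fold change of −1.46 ± 0.76 was 0.02 without control replicate 2. Alveolar type 1 markers had a median of −0.18 with 4 of 18 higher (−0.00 without LPS+bLF replicate 2), and Cav1, caveolin 1, was at 218, 283 and 348 and 238, 145 and 139.8 FPKM. Alveolar type 2 and surfactant genes had a median of 0.02 with 14 of 24 higher (−0.14 without LPS+bLF replicate 1, 0.18 without LPS+bLF replicate 2). Within that list Cd36, a fatty acid transporter that capillaries also express, was at 66.9, 92.3 and 90.6 FPKM in control and 55.2, 57.6 and 36.9 FPKM in LPS+bLF without overlap.

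Cytochrome P450 and other xenobiotic genes were higher for 8 of 37, with a median of −0.24 (−0.40 to −0.07 when 1 library was left out). Cyp4b1, a P450 of lung epithelium and endothelium, was at 96.5, 195 and 193 FPKM in control and 102, 65.1 and 71.5 FPKM in LPS+bLF. Control replicate 1 lay within the LPS+bLF range, and the other controls were higher. Cyp2d22 had −0.69 ± 0.26 with the same overlap. The list median was −0.56 in LPS versus control, where the list means were −1.18, −0.61 and −0.37 by library. LPS replicate 1 was the lowest, and LPS replicate 3 lay within the LPS+bLF range of −0.53 to −0.07. Cholesterol synthesis genes were higher for 18 of 24, at a median of 0.20. Mvd and Cyp51, enzymes of that pathway, were at 19.3, 13.1 and 14.9 and 10.3, 6.88 and 7.86 FPKM in control and at 22.3, 21.9 and 26.2 and 11.2, 12.1 and 13.7 FPKM in LPS+bLF, both without overlap.

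Iron and lactoferrin genes separated the groups no more often than all genes tested. Of all genes, 3.91% lay above all controls in FPKM and 7.8% below. Of 30 iron and haem genes 1 lay above and 1 below. These were Ftl1, the ferritin light chain, at a log2 fold change of 0.27 ± 0.20, and Alas1, the first enzyme of haem synthesis, at −0.16 ± 0.36, both named after their values were seen. Of 21 lactoferrin-binding surface proteins, 0 lay above or below. Ltf, mouse lactoferrin, was at 2.02, 3.06 and 1.09 FPKM in control and 2.94, 6.27 and 3.55 FPKM in LPS+bLF. Tfrc, the transferrin receptor, and Slc40a1, the iron exporter ferroportin, had log2 fold changes of −0.05 ± 0.27 and −0.02 ± 0.22. Fth1, ferritin heavy chain, was at 574, 1181 and 1144 and 731, 588 and 464 FPKM. Iron and haem genes had a median of −0.02 (11 of 30 higher), and lactoferrin-binding surface proteins −0.00 (10 of 21 higher). Asgr1, a receptor subunit that binds lactoferrin in liver, was at 5.81, 8.81 and 5.31 FPKM in control, 4.71, 5.9 and 7.17 FPKM in LPS+bLF and 1.87, 1.59 and 2.05 FPKM in LPS. Asgr2, the other subunit, was at 1.5, 1 and 1.55 and 5.81, 1.44 and 5.86 FPKM in control and LPS+bLF, and LPS+bLF replicate 2 overlapped with the controls.

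Energy metabolism lists were highest in the libraries that were high for fat and heart muscle genes. Nuclear oxidative phosphorylation subunits were higher for 36 of 38 with a median of 0.39, but the median was −0.31 without LPS+bLF replicate 2. Fatty acid oxidation genes were higher for 24 of 25 with a median of 0.43, and the median was −0.81 without that library. Ndufb10, a subunit of complex I, was at 530.3, 171 and 254 FPKM in control and 297, 706 and 428 FPKM in LPS+bLF. Fabp3, a fatty acid carrier of heart and brown fat, was at 136, 86.4 and 37.1 and 36.3, 371 and 39.8 FPKM. Control replicate 1 was high in both, as was LPS+bLF replicate 2. Of the lists of other tissues, skeletal muscle had a median of 4.52 and squamous epithelium of 2.58, which were 0.69 and 0.12 without LPS+bLF replicate 3. White fat had 0.92 and heart muscle 1.64, which were −4.98 and −1.12 without LPS+bLF replicate 2. Lipe, the hormone-sensitive lipase of fat, was at 178, 15 and 24.8 and 27, 298 and 47.3 FPKM, and Myl3, a myosin light chain of heart and slow muscle, at 3.03, 1.31 and 0.00 and 0.08, 3.16 and 74.5 FPKM.

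**Figure D5:**
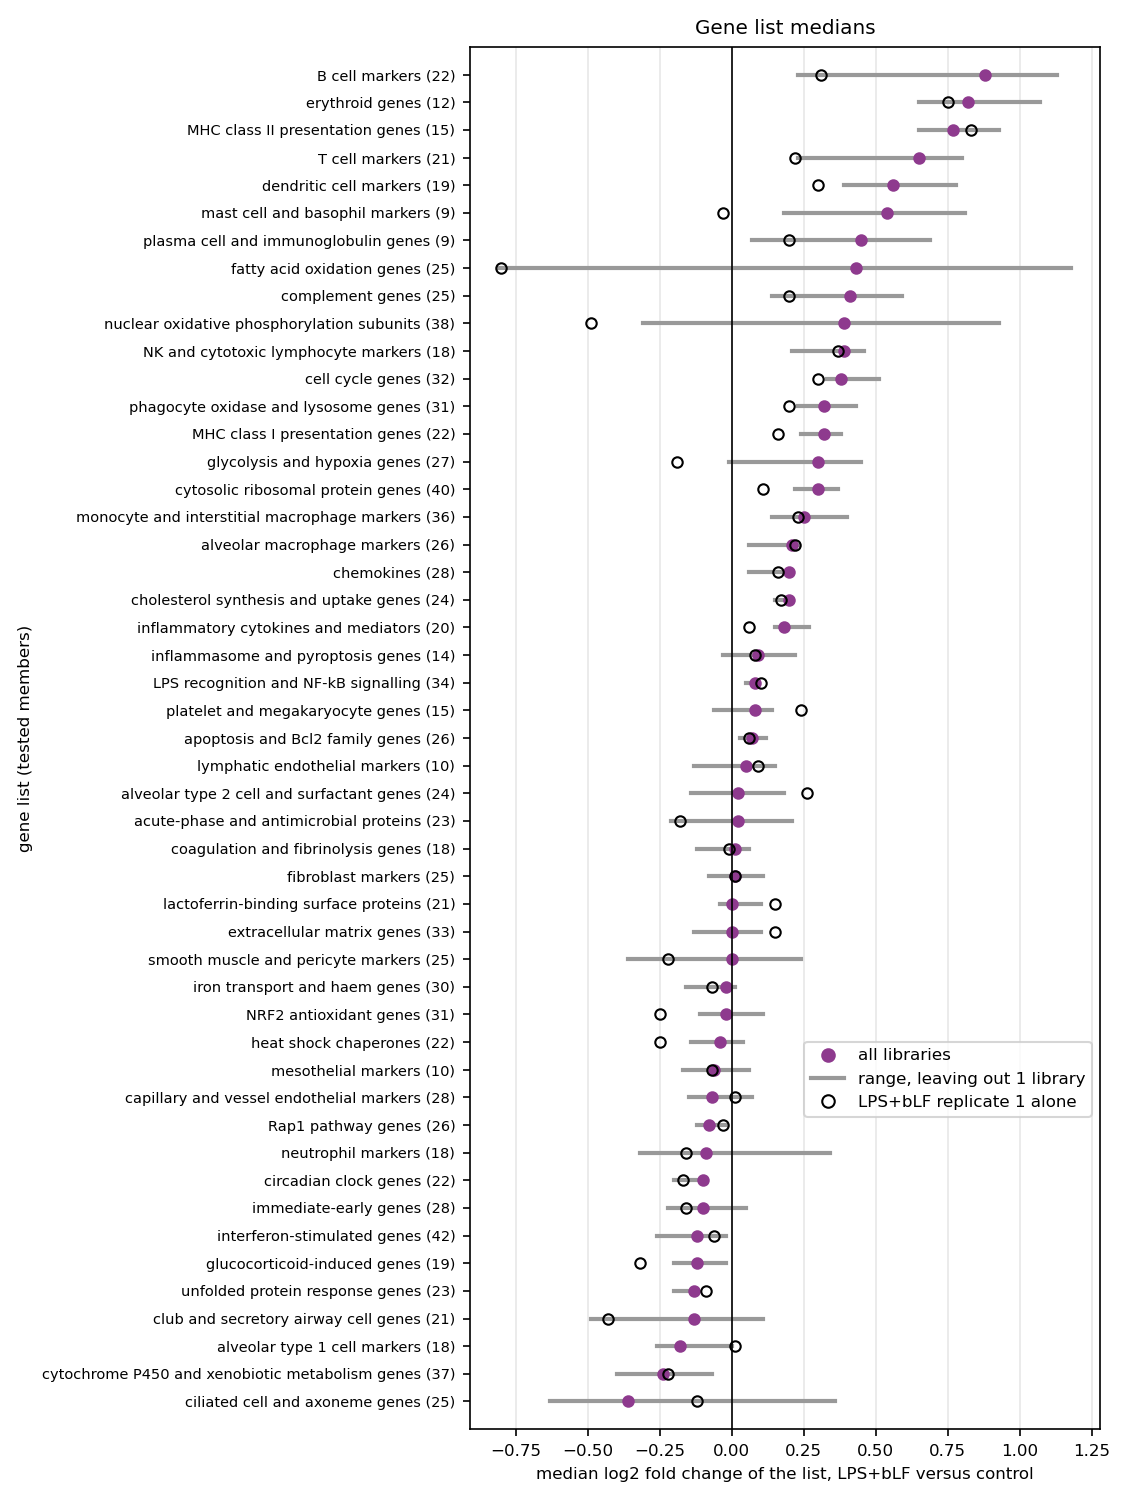
Median log2 fold change, LPS+bLF versus control, of the gene lists that are not of other tissues, with the number of tested members, the range when 1 library was left out (grey line) and the value with LPS+bLF replicate 1 alone (open circle). MHC class II (0.77), erythroid (0.82) and dendritic cell genes (0.56) keep their side of 0 in every omission, while fatty acid oxidation (0.43) and oxidative phosphorylation genes (0.39) cross it.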

How the data were processed

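RNA was measured in lungs of 12 mice in 4 groups of 3, of which 6 libraries are compared here. The deposited files list counts and FPKM by gene, per the file headers. The authors' counts were read as estimated counts, since 5.25 to 5.91% of genes in the 6 libraries had a count that was not whole. Per the submitters' processing notes, the tools were HISAT2 2.1.0 and RSEM 1.2.8 and the build was mm10, and the step each served is not given. Annotation, strand and filters were not given in the sources used here.

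These expected counts were rounded. Genes that reached 0.5 FPKM in 3 or more of 12 libraries were tested with edgeR 4.0.16 (R 4.3.3), TMM factors and a quasi-likelihood F test on 1 fit of 4 group means, 8 residual degrees of freedom, two-sided, with Benjamini-Hochberg adjustment over 13735 genes and a threshold of 0.05. SEs come from the F statistic. Alternatives were limma 3.58.1, DESeq2 1.42.0, other scalings, filters, a replicate block and leaving out libraries. The omission of LPS+bLF replicates 2 and 3 together, and DESeq2 without each library, were added after seeing the data. The code was tested on simulated counts. Gene IDs were matched to the RefSeq table of GRCm38 for 17869 of 17920 genes, from which coordinates were taken.

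The 58 gene lists held 1343 genes, of which 1160 were tested, and 57 lists had at least 5 tested members. They are described by counts and medians, without a set test. The groups compared, the lists and the naming rule were chosen with earlier results of these data known. Genes were named by rule: the 12 smallest p on each side among genes averaging 1 FPKM or more, the 2 members with the smallest p of each list, the 8 widest gaps between the groups per direction, and a set of inflammatory, macrophage, iron and epithelial genes given whatever their test. Part of the genes so named are printed, and for others the text says that their values were known first.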

Additional observations from a re-analysis of the deposited data

How the results depend on the processing

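The count of 0 called genes held in the 19 alternatives run with edgeR or limma, and DESeq2 gave 12. DESeq2 gave 108 without LPS replicate 1, 46 and 41 without LPS+bLF or control replicate 1, 13 and 0 without LPS+bLF replicate 2 or 3, and 3 and 4 without control replicate 2 or 3, and the cause was not tested. With edgeR the genes at an unadjusted p under 0.05 numbered 298 to 1582 when 1 compared library was left out, 1702 without LPS replicate 1, and 57 with LPS+bLF replicate 1 alone. Among genes with a mean of at least 5 FPKM, 846 separated the groups, against 1608 of all genes tested. The number of genes at that mean is not given here, so these counts cannot be compared as shares. With the replicate block edgeR called 0 genes, with 495 at an unadjusted p under 0.05, and it changed no call. Same-numbered libraries did not consistently deviate together (correlations of −0.687 to 0.588, 2 of 12 libraries correlated best with their own number). This check found no pairing of the mice by number, but cannot exclude one.

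Of 2255 gene values, 2193 kept their direction and side of the threshold, 12 passed it under DESeq2 alone, and 50 changed sign, for genes near 0 or resting on 1 library. Leaving out 1 library moved the log2 fold change from −0.30 to 0.22 for Asgr1, −0.04 to 0.11 for Ctsl, −0.11 to 0.54 for Cxcl1, −1.15 to 1.35 for Fabp3, −0.21 to 0.10 for Gpnmb, −0.19 to 0.61 for Il1b, −0.60 to 0.25 for Lcn2, −0.04 to 0.17 for Lgmn, −0.86 to 2.70 for Lipe, −0.49 to 2.16 for Saa3, −1.93 to 0.02 for Scgb1a1, −0.19 to 0.30 for Sftpc, −0.20 to 0.07 for Slc40a1, −0.15 to 0.01 for Tfrc and −1.52 to 10.61 for Tnnc2. With LPS+bLF replicate 1 alone the value was −0.04 for Cma1, −0.21 for Mcpt4, −0.03 for Ctsl, −1.26 for Fabp3, 0.30 for Gpnmb, −0.02 for Il1b, 0.38 for Lcn2, −1.36 for Lipe, −3.92 for Myl3, −0.08 for Ndufb10, −1.38 for Saa3, −5.94 for Tnnc2 and 0.18 for Xcr1. Gpnmb was at 0.01 with the replicate block. Ctsl and Sftpc were at −0.01 in the limma fits at each pseudocount, at −0.02 with the filter at 5 FPKM, and at −0.01 and −0.00 with upper-quartile factors. Lgmn was at −0.00 with that filter.

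Of 684 list medians, 621 moved by less than the spread of the controls. Depth limits genes near 0.5 FPKM, and 3 mice per group limit every test.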

Other observations

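Cma1 and Mcpt4, mast cell proteases, were at 40.6 and 82.9 FPKM in LPS+bLF replicate 2, against at most 6.51 and 11.4 FPKM in the controls and 5.10 and 11.2 FPKM in the other LPS+bLF libraries. Ccl21a, a chemokine of lymphatic vessels, was at 675 FPKM in the same library and at 109 to 230.4 FPKM in the other 5. In the shortest of 5 equal classes of genes the median log2 fold change was 0.2 for LPS+bLF, −0.01 for LPS and 0.0 for bLF, each against control, and in the longest class it was −0.1, −0.02 and −0.03. The value of the shortest class was 0.08 without LPS+bLF replicate 2, and by library it was 0.00, 0.21 and 0.13 in LPS+bLF replicates 1, 2 and 3 (log2 CPM relative to the mean of the 12 libraries).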
